A study of Mus musculus with 104 samples.

Results

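Methylation of 124 CpGs in 11 amplicons was compared between mouse livers collected shortly before birth (E18.5, where E is embryonic day) and shortly after it (P1, where P is postnatal day). All CpGs of the locus-specific bisulfite sequencing (LSBS) experiment were taken, without selection on their values, in the 11 livers of these ages out of 39 LSBS livers and 104 samples in all. In LSBS, DNA is treated with bisulfite, which converts unmethylated cytosines, and targeted fragments are then amplified by PCR and sequenced, and the methylation level of a CpG is the share of its reads that kept a cytosine. All mice were untreated animals of the strain labelled C57BL/6 (C57BL/6J in the study's methods) and all samples were whole liver. Of the 6 E18.5 livers, 4 (numbered 1, 6, 14 and 15) came from the time-course cohort, obtained from the supplier at that age, and 2 (17 and 44) are named in another style, shared with 4 livers of later ages, and their cohort is not given in the sources used here. The labels name no litters. By the study's methods, the LSBS samples included males and females. Mice of its initial RRBS experiments were fed a chow with coconut oil, and the diet behind livers 17 and 44 is not given here. All 5 P1 livers (1 to 5) came from the time-course cohort, so each amplicon is given with and without fetal livers 17 and 44. No value was missing among the 1364 in these livers, and no pair of livers shared an identical value at more than 5 CpGs.

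In mammals, methyl groups sit mainly on cytosines of CpG dinucleotides. DNMT1 copies the pattern to the new strand when DNA replicates, DNMT3A and DNMT3B add methyl groups at new sites, and TET enzymes oxidise methyl groups so that they can be lost. The liver of a mouse fetus is a major site of blood formation and holds many blood precursors, which become fewer as the liver matures. In the study's histology the share of blood-forming cells was higher at P1 than at E18.5 and fell only after P1. How the mix of cells differed between these E18.5 and P1 livers was not analysed here. In such bulk tissue a change in the mix of cells and a change within 1 cell type cannot be told apart.

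The amplicons are referred to here by a neighbouring gene, taken from the GENCODE annotation of mm9, as a place name only, since expression was not analysed here. Of the 11, 10 were intergenic in this annotation. Those within a few kilobases of a start site were the Rab3a amplicon, 1.16 kb upstream of a vesicle-trafficking GTPase, the Otx1 amplicon, 1.75 kb upstream of a homeobox factor and 0.920 kb beyond the end of Ehbp1, the Dusp4 amplicon, 2.10 kb upstream of a MAP kinase phosphatase, the Klf9 amplicon, 4.43 kb upstream of a hormone-responsive zinc-finger factor, and the Sp1 amplicon, 6.03 kb upstream of a general zinc-finger activator. Farther from genes lay the Bmf amplicon, 18 kb beyond the end of a pro-apoptotic BH3-only gene, the Bcl11b amplicon, 46.7 kb upstream of a zinc-finger factor of T-cell development, the Rap1b amplicon, 53.5 kb upstream of a small GTPase gene, the Kcna5 amplicon, 114 kb beyond a potassium channel gene, and the chr18 amplicon, 364 kb from Galr1, a galanin receptor gene. The Gm12756 amplicon, on chromosome 7, lay within the noncoding gene Gm12756 but in none of its exons. A place name is not always the nearest gene. The Sp1 amplicon lay closer to Gm17671, 2.35 kb upstream of its start. The Rab3a amplicon also lay 2.07 kb beyond the end of Pde4c.

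The 4 windows below are shown because they hold 12 of the 13 CpGs that passed the adjusted p of the per-CpG test, although 2 other amplicons, in which no CpG passed, differed more in their means. Each runs on the plus strand of mm9 from the base after the forward primer to the first base of the reverse primer, and capitals mark the CpGs, all of which were measured.

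Bcl11b amplicon, chr12:109288541-109288751: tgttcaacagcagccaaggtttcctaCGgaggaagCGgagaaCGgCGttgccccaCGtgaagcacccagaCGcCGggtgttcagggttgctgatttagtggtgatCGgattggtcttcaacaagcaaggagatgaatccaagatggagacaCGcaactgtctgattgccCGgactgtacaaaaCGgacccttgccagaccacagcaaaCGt

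Klf9 amplicon, chr19:23211040-23211262: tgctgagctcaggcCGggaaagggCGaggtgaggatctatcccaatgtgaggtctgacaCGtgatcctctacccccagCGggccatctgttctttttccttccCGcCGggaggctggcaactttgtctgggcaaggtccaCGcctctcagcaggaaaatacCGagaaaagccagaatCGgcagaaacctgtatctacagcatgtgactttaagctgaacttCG

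Otx1 amplicon, chr11:21904676-21904887: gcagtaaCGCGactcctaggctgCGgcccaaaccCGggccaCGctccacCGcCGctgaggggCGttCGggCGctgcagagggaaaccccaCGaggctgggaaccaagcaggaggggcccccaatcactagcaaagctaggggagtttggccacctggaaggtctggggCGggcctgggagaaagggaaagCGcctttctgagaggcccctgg

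Rab3a amplicon, chr8:73277180-73277398: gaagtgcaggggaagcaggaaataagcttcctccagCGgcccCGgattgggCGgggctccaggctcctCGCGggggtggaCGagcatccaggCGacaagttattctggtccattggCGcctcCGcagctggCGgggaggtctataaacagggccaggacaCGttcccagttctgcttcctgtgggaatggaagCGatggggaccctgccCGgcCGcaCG

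The 11 windows differed widely in base composition and in methylation. GC content ran from 43.7% in the chr18 amplicon to 68.3% in the Bmf amplicon. The ratio of observed to expected CpGs was highest in the Bcl11b amplicon, at 0.783, and next in the Dusp4 amplicon, at 0.740. At E18.5 these 2 stood far apart in level, with mean methylation of 81.6% ± 0.787 (SD, n = 6) in the Bcl11b amplicon and 1.45% ± 0.201 in the Dusp4 amplicon. The Rap1b amplicon had the lowest ratio, 0.376, and a low level of 7.27% ± 1.88. Fetal livers held 5 amplicons under 10% (Sp1, Dusp4, Rab3a, Otx1 and Rap1b), the Klf9 amplicon at 26.0% ± 1.61, and 5 amplicons between 66.6% and 82.5%.

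Across birth the shifts were small. The mean over all 124 CpGs was 36.7% ± 0.609 (SD, n = 6) at E18.5 and 37.5% ± 0.694 (n = 5) at P1, and the groups overlapped, with livers from 35.8% to 37.2% before birth and from 36.6% to 38.2% after it. Averaged over CpGs, 2 livers of the same age differed by 2.44 percentage points at E18.5 and by 3.03 at P1, and livers of different ages differed by 3.20, with single pairs from 2.52 to 4.58. At P1, 79 CpGs had a higher mean and 45 a lower mean than at E18.5, and the median difference was 0.628 percentage points. Of 11 amplicon means, 6 (54.5%) differed with an adjusted p no higher than 0.1 (two-sided exact permutation test over 462 assignments of livers, with Benjamini-Hochberg adjustment over 11 amplicons), 5 higher and 1 lower at P1. When only the time-course livers were compared, 1 amplicon, Bcl11b, passed. CpGs of an amplicon are read on the same molecules and are not independent of each other.

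**Figure D1:**
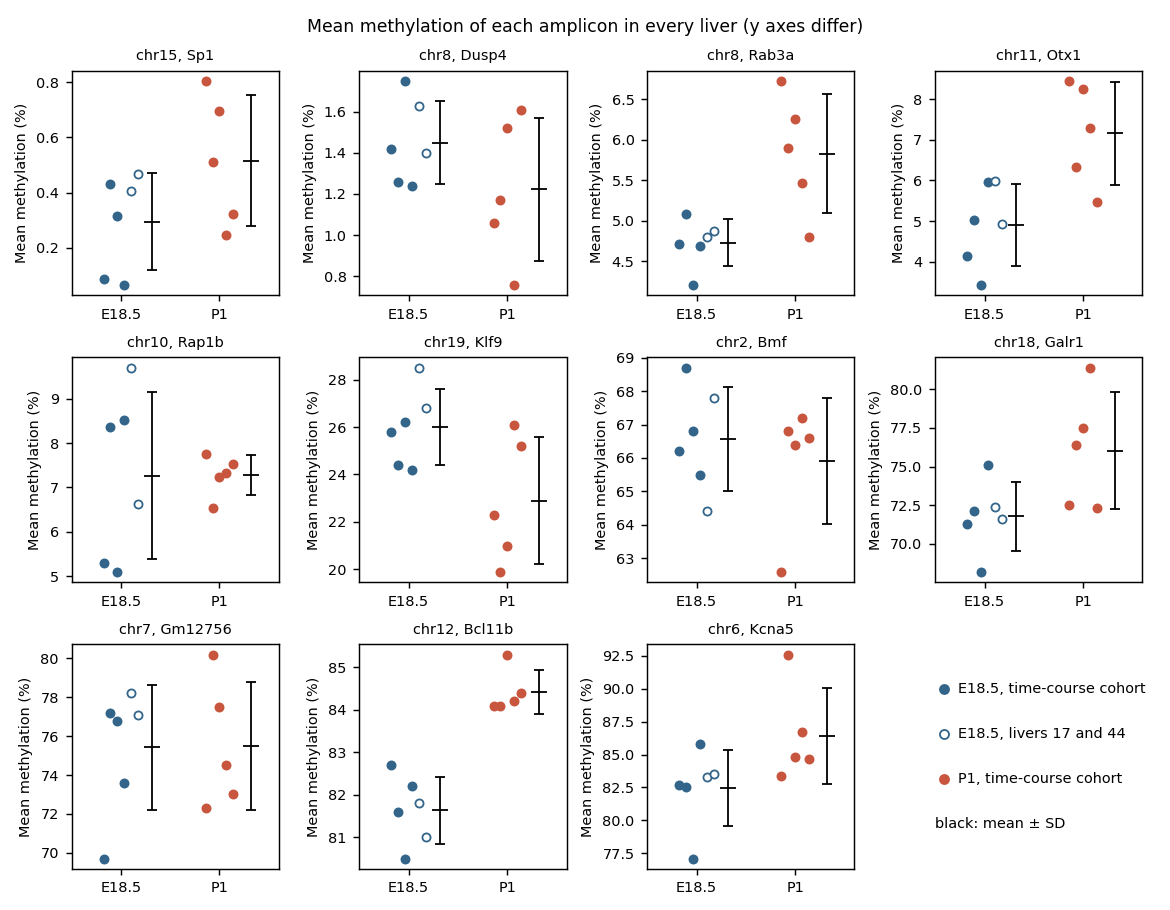
Mean methylation of each amplicon (y axis, percent, scaled separately in each panel) in every E18.5 and P1 liver (points); the black bars give mean ± SD, and open points are E18.5 livers 17 and 44, named in another style. Panel titles give the chromosome and the gene used as place name (Galr1 for the chr18 amplicon). Only in the Bcl11b panel do the points of the 2 ages not overlap, with E18.5 livers from 80.5% to 82.7% and P1 livers from 84.1% to 85.3%.

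The clearest shift was in the Bcl11b amplicon. Its mean was 82.7%, 81.6%, 80.5%, 82.2%, 81.8% and 81.0% in E18.5 livers 1, 6, 14, 15, 17 and 44, and 84.1%, 84.1%, 85.3%, 84.2% and 84.4% in P1 livers 1 to 5. Every P1 liver lay above every E18.5 liver, and livers 17 and 44 lay inside the range of the other fetal livers. The difference was 2.81 percentage points (SE 0.394, exact permutation p = 0.00216, the smallest p that this test can give, adjusted p = 0.0238). Within the time-course cohort it was 2.71 points (exact p = 0.00794, again the smallest p possible, adjusted p = 0.0873). It passed with each liver left out in turn, with a largest adjusted p of 0.0873. Groups that do not overlap stay apart in any subset of livers. Both this outcome and that within the time-course cohort were therefore fixed in advance and are no further test. Taking the median over CpGs in place of the mean gave 1.81 points and an adjusted p of 0.135.

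All 12 CpGs of this amplicon were higher at P1, by 0.342 to 8.02 points, and the largest lay at its 3′ end. The first 4 CpGs differed by 0.342 to 2.22 points, and none passed the adjusted p of the per-CpG test described below, the fifth, at base 56, differed by 2.82 points and passed it (limma adjusted p = 0.0550), the sixth and seventh differed by 2.85 and 1.25 points and did not, and the last 5, at bases 106 to 209 of the window, rose by 3.32 to 8.02 points and all passed it. Of these 5, the last alone also differed by over 5 points, and the 9th and 10th did not pass within the time-course cohort (limma adjusted p = 0.209 and 0.228). The fifth CpG did not pass there either (limma adjusted p = 0.174), and passed in 8 of the 11 fits with a liver left out. The last CpG (mm9 chromosome 12, position 109288749) had by far the lowest level of the 12. It was 51.7%, 53.5%, 51.0%, 53.3%, 54.7% and 55.7% methylated in the fetal livers and 59.4%, 57.4%, 64.8%, 61.8% and 63.1% in the P1 livers, against fetal means of 79.2% to 89.9% at the other 11 CpGs. All P1 values were above all fetal values. This CpG directly abuts the reverse primer, and what that position contributes to its level was not tested. Without it the amplicon rose from 84.2% to 86.5%, a difference of 2.34 points (exact p = 0.00433, adjusted p = 0.0238 without the CpGs touching a reverse primer), and the fetal livers, up to 85.5%, still did not overlap the P1 livers, from 86.3%.

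A pair of amplicons that were almost unmethylated in the fetal liver had also risen slightly by P1. The Otx1 amplicon was 4.13%, 5.02%, 3.43%, 5.96%, 5.99% and 4.92% methylated in E18.5 livers 1, 6, 14, 15, 17 and 44, and 8.45%, 6.33%, 8.24%, 7.30% and 5.48% in P1 livers 1 to 5. P1 liver 5 lay within the fetal range and the other 4 above it. The difference was 2.25 points (SE 0.697, exact permutation p = 0.0152, adjusted p = 0.0556), and all 13 CpGs had a higher mean at P1. The Rab3a amplicon was 4.72%, 5.08%, 4.21%, 4.69%, 4.80% and 4.87% methylated in the same fetal livers and 6.73%, 5.90%, 6.26%, 5.47% and 4.80% in the P1 livers. Here too only P1 liver 5 fell within the fetal range. The difference was 1.11 points (SE 0.351, exact permutation p = 0.00649, adjusted p = 0.0357), and 13 of its 15 CpGs were higher at P1. In the time-course cohort alone the differences were 2.52 and 1.16 points, each with an exact p of 0.0317 and an adjusted p of 0.116. The adjusted p also reached 0.116 for Otx1 when E18.5 liver 1, 6, 14 or 44 was left out (0.105 without P1 liver 3), and for Rab3a when E18.5 liver 1 or 14 was left out. The differences then were 1.96 to 2.27 points for Otx1 and 1.1 and 1.0 points for Rab3a, against 2.25 and 1.11 points with all livers.

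The highly methylated chr18 and Kcna5 amplicons were higher at P1 in the mean, with wider spreads and overlapping livers. The chr18 amplicon had 71.8% ± 2.23 (SD, n = 6) at E18.5, with livers from 68.2% to 75.1%, and 72.5%, 76.4%, 77.5%, 81.4% and 72.3% in P1 livers 1 to 5. P1 livers 2, 3 and 4 lay above all fetal livers, and the difference was 4.23 points (SE 1.92, exact permutation p = 0.0476, adjusted p = 0.0952). The Kcna5 amplicon had 82.5% ± 2.86 at E18.5, with livers from 77.1% to 85.8%, and 83.4%, 92.6%, 84.8%, 86.7% and 84.7% in the P1 livers. P1 liver 2 stood apart there, and without it the difference fell from 3.97 points (SE 2.01, exact permutation p = 0.0498, adjusted p = 0.0952) to 2.42 points, with an adjusted p of 0.262. All 6 and all 11 CpGs of these amplicons had a higher mean at P1, but no single CpG passed. Within the time-course cohort the differences were no smaller, at 4.32 points for chr18 (exact p = 0.103) and 4.41 points for Kcna5 (exact p = 0.111), with an adjusted p of 0.204 for both. That test has 126 possible assignments of livers to ages, against 462 with all livers. Both calls were lost when E18.5 liver 1, 6, 14, 17 or 44 or P1 liver 2, 3 or 4 was left out, and Kcna5 also without P1 liver 5. In these cases the chr18 difference lay between 2.89 points (adjusted p = 0.180, without P1 liver 4) and 4.34 points (adjusted p = 0.131, without E18.5 liver 17). The Kcna5 difference lay between 2.42 and 4.42 points, the latter without P1 liver 5 (adjusted p = 0.105).

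The Klf9 amplicon was the only one of the 6 to be lower at P1. It was 25.8%, 24.4%, 26.2%, 24.2%, 28.5% and 26.8% methylated in E18.5 livers 1, 6, 14, 15, 17 and 44, and 22.3%, 19.9%, 21.0%, 26.1% and 25.2% in P1 livers 1 to 5. P1 livers 1, 2 and 3 were below every fetal liver, while P1 livers 4 and 5 lay within the fetal range. The difference was -3.10 points (SE 1.36, exact permutation p = 0.0519, adjusted p = 0.0952), and all 10 CpGs were lower at P1, by 1.51 to 7.86 points in size. Fetal livers 17 and 44 averaged 2.49 points above the other 4. Without them the difference was -2.27 points (exact p = 0.159, adjusted p = 0.249). The call was also lost on the logit scale (adjusted p = 0.103) and when any liver but P1 liver 4 or 5 was left out. In these cases the difference lay between -2.35 points without P1 liver 2 (adjusted p = 0.230, the largest) and -3.46 points without E18.5 liver 15 (adjusted p = 0.102).

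The other 5 amplicons did not pass. The Bmf amplicon, whose mean was far lower at later ages, had 66.6% ± 1.56 (SD, n = 6) at E18.5 and 62.6%, 66.8%, 66.4%, 67.2% and 66.6% in P1 livers 1 to 5, a difference of -0.669 points (SE 1.06, exact permutation p = 0.543). P1 liver 1 was its lowest liver, and without it the difference was 0.163 points. The Gm12756 amplicon had 75.4% ± 3.21 and 75.5% ± 3.29 (n = 5), with differences of either sign among its CpGs, from -4.95 to 5.07 points. The Rap1b amplicon had 7.27% ± 1.88 and 7.28% ± 0.458. The Sp1 amplicon stayed under 1% in every liver, at 0.295% ± 0.177 and 0.515% ± 0.237. The Dusp4 amplicon had 1.45% ± 0.201 and 1.22% ± 0.347, a difference of -0.225 points (SE 0.176, exact permutation p = 0.214). Within the time-course cohort the differences were -0.917 points for Bmf, 1.19 for Gm12756, 0.458 for Rap1b, 0.291 for Sp1 and -0.193 for Dusp4, with adjusted p-values from 0.204 to 0.611.

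Per CpG, 2 of 124 (1.61%) passed an adjusted p of at most 0.1 with a mean difference over 5 points (limma on the fractions). They were the last CpG of the Bcl11b amplicon, with a rise of 8.02 points (SE 1.36, limma adjusted p = 0.00782), and the second CpG of the Klf9 amplicon (mm9 chromosome 19, position 23211064), with a fall of 7.86 points (SE 1.27, limma adjusted p = 0.00782). The Klf9 CpG was 36.6%, 36.0%, 36.0%, 35.4%, 40.1% and 38.5% methylated in E18.5 livers 1, 6, 14, 15, 17 and 44. In P1 livers 1 to 5 it was 32.3%, 25.5%, 29.3%, 28.1% and 30.9%. The 2 ages did not overlap, and the next CpGs on either side differed much less, by -2.56 points for the first CpG and -1.55 points for the third. Without this CpG the amplicon's difference was -2.57 points (exact p = 0.0974, adjusted p = 0.179). Both CpGs passed with each liver left out and within the time-course cohort (limma adjusted p = 0.0315 and 0.0389). In a limma fit of all 39 livers, which shares 1 estimate of the spread over all ages, both had an adjusted p of 0.158 and no CpG was called.

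**Figure D2:**
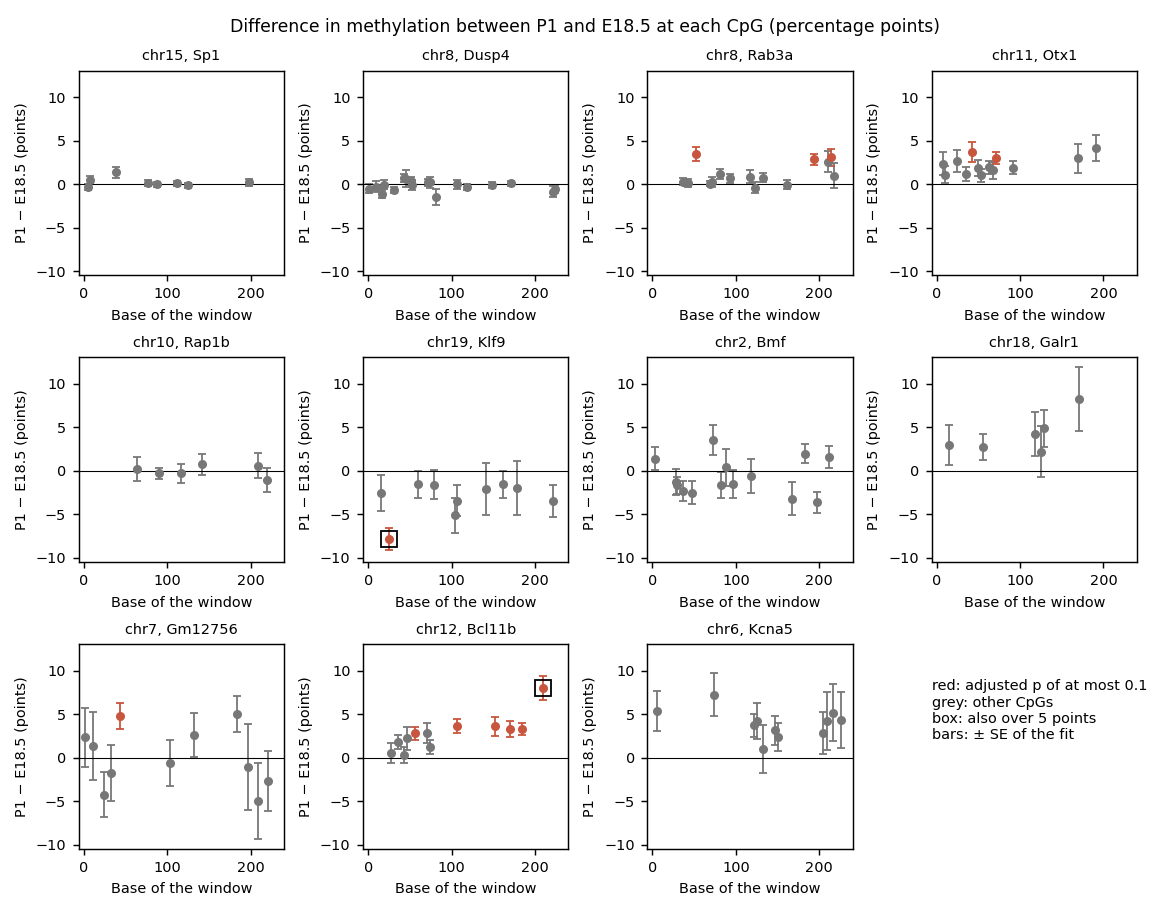
Difference in methylation between P1 and E18.5 (y axis, percentage points, same scale in all panels) at each of the 124 CpGs against its base in the window (x axis), with the SE of the fit. Red points passed the adjusted p, and boxes mark the 2 CpGs that also differed by over 5 points. All 12 points of the Bcl11b panel lie above 0 and all 10 of the Klf9 panel under it, while points of the Gm12756 and Bmf panels lie on both sides.

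Without the minimum difference, 13 of 124 CpGs (10.5%) passed, 12 higher and 1 lower at P1. They were 6 of the 12 Bcl11b CpGs, 3 of the 15 Rab3a CpGs, 2 of the 13 Otx1 CpGs, the second Klf9 CpG and the fifth Gm12756 CpG. Of these, 7 also passed with each of the 11 livers left out in turn, and these were the 7 that passed within the time-course cohort: the 8th, 11th and 12th Bcl11b CpGs, the second Klf9 CpG, the 10th Otx1 CpG, and the third and 12th Rab3a CpGs. On the logit scale 3 CpGs passed: the 12th Bcl11b, the second Klf9 and the third Rab3a CpG (limma adjusted p = 0.0707 each). The 10th Otx1 CpG did not pass there (limma adjusted p = 0.104). This Otx1 CpG (position 21904746) and the third Rab3a CpG (position 73277231) were chosen for description after their values were seen. The Otx1 CpG was 3.66% to 7.22% methylated in the fetal livers and 10.3%, 8.0%, 9.11%, 8.81% and 8.79% in P1 livers 1 to 5, a difference of 3.03 points (limma adjusted p = 0.0230). The Rab3a CpG was 4.08% to 7.23% methylated in the fetal livers and 9.09%, 11.5%, 10.8%, 7.86% and 8.22% in the P1 livers, a difference of 3.5 points (limma adjusted p = 0.0230). In both, all P1 livers lay above all fetal livers, including P1 liver 5, which was inside the fetal range for both amplicon means. Groups did not overlap at 8 of 124 CpGs (6.45%). One of these, the fifth Dusp4 CpG (position 35868029), was lower at P1, at 0.748% ± 0.569 and 0.0359% ± 0.0629, and did not pass (limma adjusted p = 0.257).

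**Figure D3:**
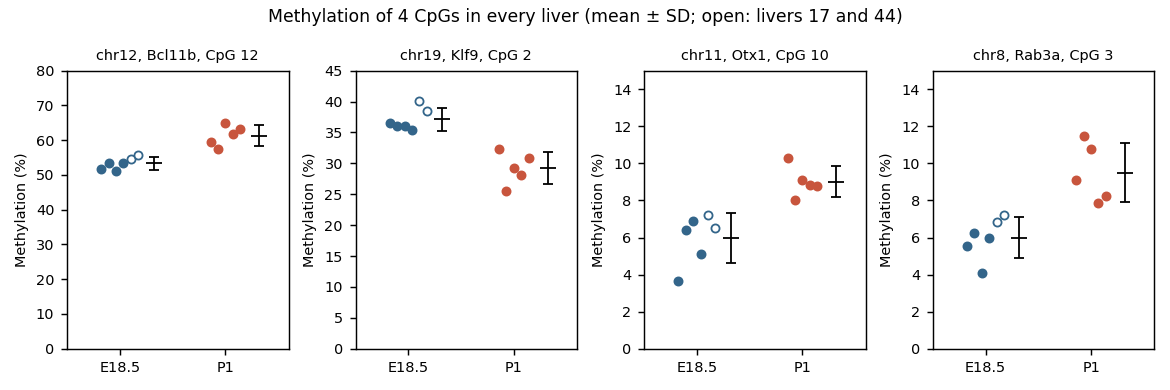
Methylation (y axis, percent, from 0, scaled separately) of 4 CpGs in every E18.5 and P1 liver, with mean ± SD. Open points are E18.5 livers 17 and 44. In each panel the 2 ages do not overlap: the last Bcl11b CpG is at 51.0% to 55.7% and then 57.4% to 64.8%, and the second Klf9 CpG at 35.4% to 40.1% and then 25.5% to 32.3%.

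Of the 11 CpGs that give the amplicons their names in the study's design, 1 passed the adjusted p, a share near that over all CpGs (10.5%). It was the 8th CpG of the Bcl11b amplicon (position 109288646), which rose from 83.2% ± 1.38 (SD, n = 6) to 86.8% ± 1.35 (n = 5), by 3.62 points (limma adjusted p = 0.0230). It did not pass in the fit of all 39 livers (adjusted p = 0.515), on the logit scale (0.104), with a mean-variance trend (0.105) or without CpGs under 10% in all livers (0.109). The naming CpG of the chr18 amplicon (position 82197710) had 80.4% ± 2.71 and 85.3% ± 4.77, a difference of 4.90 points (limma adjusted p = 0.218). That of the Klf9 amplicon (position 23211118) had 17.5% ± 2.99 and 15.9% ± 2.96. Those of the Otx1 and Bmf amplicons (positions 21904683 and 118336266) differed by 2.36 and 1.41 points, and that of the Kcna5 amplicon (position 126368042) by 2.86 points. At the naming CpGs of the Rap1b, Sp1, Gm12756, Dusp4 and Rab3a amplicons (positions 117336769, 102230520, 35453076, 35868104 and 73277222) the differences were 0.624, 0.193, -1.06, -0.0433 and 0.136 points.

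The CpGs were also grouped by their fetal level, as a description. The 55 CpGs under 10% at E18.5 had a median difference of 0.215 points, with 36 higher and 19 lower at P1. Of the 16 CpGs from 10% to 50%, 4 were higher and 12 lower, with a median of -1.60 points; 10 of the 16 belong to the Klf9 amplicon. The 25 CpGs from 50% to 80% had a median of 1.41 points, with 15 higher and 10 lower. The 28 CpGs at 80% or more had a median of 2.83 points, with 24 higher and 4 lower. Most of these 28 belong to the Bcl11b and Kcna5 amplicons, in which every CpG was higher at P1. Spread between livers also depended on the level: the median SD at E18.5 was 0.735 points under 10%, 2.76 and 2.82 points in the 2 middle groups, and 2.46 points at 80% or more.

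The P1 livers were not equally far from the fetal range. P1 livers 1 and 3 had the 2 highest values in the Otx1 amplicon (8.45% and 8.24%), in the Rab3a amplicon (6.73% and 6.26%) and in the Sp1 amplicon (0.805% and 0.694%). P1 liver 5 had the lowest Otx1 and Rab3a values (5.48% and 4.80%) and the lowest chr18 value (72.3%). P1 liver 2 had the lowest Klf9 value (19.9%) and the highest Kcna5 value (92.6%). With 5 livers these orders are a description only.

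Reduced representation bisulfite sequencing (RRBS), which reads short fragments cut by a restriction enzyme, covered 11 of the 124 CpGs in the liver, 5 on the same strand and 6 on the opposite strand. In 8 livers measured by both methods these CpGs averaged 26.6% by LSBS and 23.3% by RRBS, a difference of 3.31 points (SD 4.52, n = 8, higher by LSBS in 6 of 8 livers, exact sign-flip permutation p = 0.0703, two-sided). At the 5 CpGs read on the same strand the difference was 1.84 points (exact p = 0.0781). Over the whole RRBS tables, comparison of E18.5 with P1 by limma called 0 of 70259 CpGs (0%) in the liver, with 4682 at an unadjusted p under 0.05, and 0 of 45895 (0%) in muscle, with 2916. At all 11 shared CpGs the SD of the E18.5 livers by RRBS was larger than the difference between the ages by LSBS. The 14th Rab3a CpG, 1 of the 13 that passed by LSBS, was 8.32% ± 5.69 at E18.5 and 10.9% ± 5.04 at P1 by RRBS (n = 4 each), a difference of 2.59 points (limma adjusted p = 0.945), against 3.06 points by LSBS. The other 2 shared Rab3a CpGs were also higher at P1 in RRBS, by 0.467 and 3.36 points. At 3 shared CpGs the sign of the difference was not the same by RRBS and LSBS: it was -2.87 and 4.23 points at the third chr18 CpG, 5.03 and -0.245 at the second Rap1b CpG, and -3.08 and 0.624 at the fifth Rap1b CpG.

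The first Klf9 CpG, read by RRBS on the opposite strand, was lower at P1 in the liver and in skeletal muscle. In liver RRBS it was 13.2% ± 9.46 (SD, n = 3) at E18.5 and 4.89% ± 3.82 (n = 4) at P1 (limma adjusted p = 0.818), and in muscle 12% ± 8.62 (n = 3) and 1.48% ± 2.03 (n = 5) (limma adjusted p = 0.766). Neither passed. In P1 heart it was 2.83% ± 2.51 (n = 4). By LSBS the same CpG was 25.2% and 22.6% methylated in the liver, a higher level than RRBS gave at either age. The last 2 Rap1b CpGs had lower means in the liver than in muscle or heart. In P1 livers they were 8.41% ± 4.24 and 9.11% ± 7.19 methylated (n = 4). In P1 muscle they were 42.6% ± 15.1 and 43.5% ± 13.9 (n = 5), and in P1 heart 41.0% ± 16.2 and 36.9% ± 13.0 (n = 4). At E18.5 they were 11.5% ± 8.18 and 9.1% ± 9.46 methylated in liver (n = 4), and 47.3% ± 12.7 and 48.5% ± 6.68 in muscle (n = 2). The tissue tables were filtered separately and this difference was not tested.

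Set beside the later ages, the changes across birth were small in the amplicons that changed most afterwards. The E18.5 and P1 livers enter both sets of values, so they are given side by side without a test. Unlike the P1 and P5 livers, the 9 wk livers were not from the time-course cohort. Age and cohort cannot be told apart there. The Bmf amplicon differed by -0.669 points at P1, and was at 48.3% ± 4.62 (SD, n = 5) at P5 and 22.1% ± 3.21 (n = 5) at 9 wk. The Otx1 amplicon was 2.25 points higher at P1 and was at 19.1% ± 3.53 at P5 and 43.6% ± 1.19 at 9 wk. The Rab3a amplicon went from 5.83% ± 0.739 at P1 to 10.9% ± 4.24 at P5 and 30.4% ± 3.28 at 9 wk, and the Dusp4 amplicon from 1.22% ± 0.347 at P1 to 4.57% ± 0.703 and 18.7% ± 1.19. The Bcl11b amplicon gained 2.81 points to P1 and 4.80 from P1 to P5, and ended at 91.5% ± 1.08 at 9 wk. The chr18 amplicon gained 4.23 and 4.07 points, and the Kcna5 amplicon 3.97 and 5.78. The Klf9 amplicon differed by -3.10 points to P1 and -4.72 from P1 to P5, and was at 4.93% ± 2.59 at 9 wk.

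**Figure D4:**
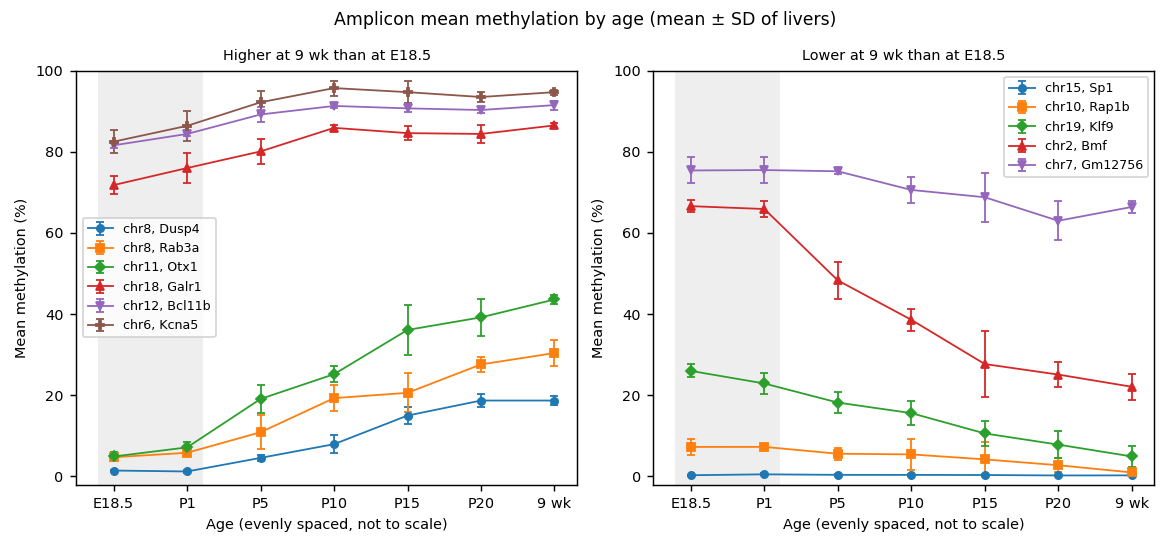
Mean methylation of the 11 amplicons (y axis, percent) at 7 ages (x axis, evenly spaced), as mean ± SD of 5 or 6 livers per age; the grey band holds E18.5 and P1. Within the band the lines are nearly flat, and the Bmf line drops from 65.9% at P1 to 48.3% at P5. The Sp1 line, in the panel of amplicons lower at 9 wk, stays under 1% throughout. Livers of 9 wk were not from the time-course cohort.

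The last Bcl11b CpG had a fetal level of 53.3% ± 1.78 (SD, n = 6), stood at 61.3% ± 2.93 (n = 5) by P1 and at 69.8% ± 4.33 (n = 5) by P5, peaked in the mean at 78.8% ± 8.37 (n = 6) by P15, and was at 74.1% ± 4.78 (n = 5) in the 9 wk livers. The second Klf9 CpG had 37.1% ± 1.82 in the fetal livers, 29.2% ± 2.62 by P1, 24.8% ± 8.80 by P5 and 5.72% ± 2.67 in the 9 wk livers. For this CpG the spread at P5 was 8.80 points, wider than the step from P1. As above, the 9 wk livers were not from the time-course cohort.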

How the data were processed

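Methylation was measured by LSBS in 39 livers, and by RRBS in liver, muscle and heart. The authors aligned reads to mm9 with Bismark v0.7.6 and bowtie2 and discarded LSBS CpGs under 100 reads (RRBS, under 10) or missing in over 20% of samples. The deposited values are methylation fractions, which were multiplied by 100 to give percent. The depth behind single values is unknown. Reads carried no molecular identifiers, so several can stem from 1 molecule, and counting intervals were not computed. Groups came from the sample labels, and 13 columns not matched to a sample were not used.

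CpGs were compared with limma 3.58.1 (R 4.3.3) on fractions, with Benjamini-Hochberg adjustment over all CpGs of a table. A call needed an adjusted p of at most 0.1 and a difference over 5 percentage points. Amplicon means were compared by exact permutation of livers. Primers were located in mm9 and annotated with GENCODE vM1. Procedures were tested on simulated data. Alternatives covered cohort, scale, model, filters, limits and each liver left out. All amplicons were named, with the CpG naming each and up to 3 CpGs with the largest rise or fall past the test. CpGs, amplicons and lists were chosen with earlier results of these data known.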

Additional observations from a re-analysis of the deposited data

Results flagged for a closer look

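Within-group outliers were looked for in 50 groups of livers (each amplicon, each named CpG and the mean of all CpGs, at each age), by the gap of the extreme liver to its neighbour over the range of its group. Chance flags about 1 in 20 groups, and 4 were found. In the Bcl11b amplicon P1 liver 3, at 85.3%, lay above the other P1 livers, at 84.1% to 84.4%. In the Bmf amplicon P1 liver 1, at 62.6%, lay below the others, at 66.4% to 67.2%. At the naming CpG of the Gm12756 amplicon P1 liver 2, at 90.1%, lay above the others, at 71.3% to 75.2%. At the naming CpG of the Rab3a amplicon E18.5 liver 17, at 0.472%, lay below the others, at 1.84% to 2.63%.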

How the results depend on the processing

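No paired analysis was possible because E18.5 and P1 livers come from different animals and the labels name no litters. The 2 called CpGs became 0 in a fit of all 39 livers, 0 with a limit of 10 points and 13 with none, and 2 to 4 with each liver left out, the highest without P1 liver 1. The count by adjusted p alone, 13, followed after the data were seen, became 0 in the fit of all livers, 7 in the time-course cohort, 7 with cohort as a covariate, 3 on the logit scale, 8 without moderation, 5 with a mean-variance trend, 2 without CpGs under 10% in all livers, 7 at an adjusted p of 0.05, and 7 to 15 with each liver left out. The count of amplicons, 6, became 0 with the median over CpGs, 5 on the logit scale, 1 in the time-course cohort, 2 at an adjusted p of 0.05, 3 without the CpG of largest difference, 3 without CpGs touching a reverse primer (the last 3 of these chosen after the data were seen), and 1 to 5 with each liver left out. Liver and muscle RRBS gave 0 calls with each library left out and, in liver, on the logit scale. Among the amplicons, the naming CpGs and the 2 called CpGs, signs reversed only for differences that did not pass. With each liver left out these ran from -0.422 to 0.498 points for the Rap1b amplicon, -1.11 to 0.163 for Bmf and -1.08 to 0.878 for Gm12756, and at naming CpGs from -0.209 to 1.33 (Rap1b), -4.53 to 1.37 (Gm12756), -0.389 to 0.218 (Dusp4) and -0.156 to 0.275 (Rab3a). In the time-course cohort and with cohort as a covariate the last 3 were 0.289, 0.0814 and -0.0543. The covariate sets apart only E18.5 livers 17 and 44, by their naming style. It therefore gives the same differences as leaving them out and is not a separate check. The Sp1 amplicon was -0.0232 with the median, and Gm12756 was -0.417 without its CpG of largest difference. The causes were not tested. With 4 fetal livers, or with 5 livers per age, the smallest exact p is 0.00794, which adjusts to 0.0873 for a lone amplicon, and read depth per value is unknown.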
